A study of Mus musculus with 9 samples.

Results

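The genes described here are 34 genes of glucose breakdown and of the response to low oxygen, measured in the mouse colon. They were chosen by name from a list of glucose transporters, glycolytic enzymes, genes of oxygen sensing and genes that low oxygen induces. All 34 symbols were found among the 27719 genes of the count table. A second entry for *Aldoa* held 0 counts in every mouse and was left out. The list holds 2 glucose transporters, 10 genes of upper glycolysis, 5 of lower glycolysis, 3 of pyruvate and lactate handling, 4 of oxygen sensing and 10 hypoxia-induced genes.

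Colon RNA came from C57BL/6J mice, with 3 mice in each of 3 groups. The control group drank distilled water. The DSS group drank 2.5% dextran sodium sulfate (DSS), a polymer that injures the colon epithelium, for 7 days. In the DSS + EA group, the same DSS was combined with electroacupuncture (EA), a weak current passed through needles, at the ST36 points of both hind limbs. EA was given for 30 minutes a day at 2 Hz and 0.2 mA on 5 days, from day 5 of modeling onwards, while the other groups were only held in the frame. Full-length cDNA was read on a Nanopore instrument, and each value is the number of reads counted on a gene in 1 mouse. Levels are given as CPM, that is, counts scaled to the size of each library with the TMM method, and they are not corrected for gene length.

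Glycolysis splits glucose into pyruvate without using oxygen. Its upper part spends ATP to trap and cleave the sugar, and its lower part returns ATP. When oxygen falls, prolyl hydroxylases stop marking the hypoxia-inducible factors HIF-1α and HIF-2α for degradation, and these factors then raise the transcription of glycolytic enzymes, lactate export and blood vessel signals. The colon lining lies next to an almost oxygen-free lumen, and its epithelium is known to use much oxygen to burn butyrate, whereas neutrophils are known to live largely on glycolysis.

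The colon of DSS mice held more RNA of lower glycolysis, of the regulator *Pfkfb3*, of the lactate exporter *Slc16a3* and of both HIF α subunits than the colon of control mice, and less of the phosphofructokinase *Pfkl*. Of the 33 members that passed the filter on low counts, 14 had higher and 2 had lower levels in DSS mice at a Benjamini-Hochberg adjusted p under 0.05 in edgeR's quasi-likelihood test. Over all 12566 genes tested, 21.5% were called higher and 19.5% lower. Members that passed the filter had a median log2 fold change of 0.29, against 0.02 over all genes tested. The median was 0.52 without control mouse 1 and 0.50 without DSS mouse 1. In those 2 fits *Slc2a3*, at 2.89 and 3.61, also passed the filter, so these medians are not over the same members as 0.29. In 17 of the 33 members the DSS and control mice did not overlap, as in 52% of all genes. By the thresholds of the study's methods (a log2 fold change beyond 2.5 and an unadjusted P under 0.01), 4 members were differentially expressed genes (DEGs), *Pfkfb3*, *Hk3*, *Adm* and *Hif1a*, against 10.2% of all genes. *Pfkfb3* passed the filter only through the DSS mice, where it was high. *Hk3* and *Adm* did not pass it in a fit without the DSS group.

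With EA, 5 members were higher and 6 lower than in the DSS group, where 17.2% and 18.3% of all genes were called. Their median was -0.09 on the log2 scale, against -0.02 over all genes. The mice of these groups did not overlap in 10 members, against 47.4% of all genes, and 1 member, *Pfkfb3*, was a DEG, against 6.41%. Compared with the control group, 4 members had higher and 0 had lower levels in DSS + EA mice, where 3% and 0.637% of all genes were called. In that comparison the mice did not overlap in 16 members, against 32.2% of all genes, 0 members were DEGs, against 2.08%, and the median was 0.51, against 0.002 over all genes. The DSS mice enter both of the first comparisons and the control mice enter the first and the last, so the comparisons are not independent of each other.

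**Figure D1:**
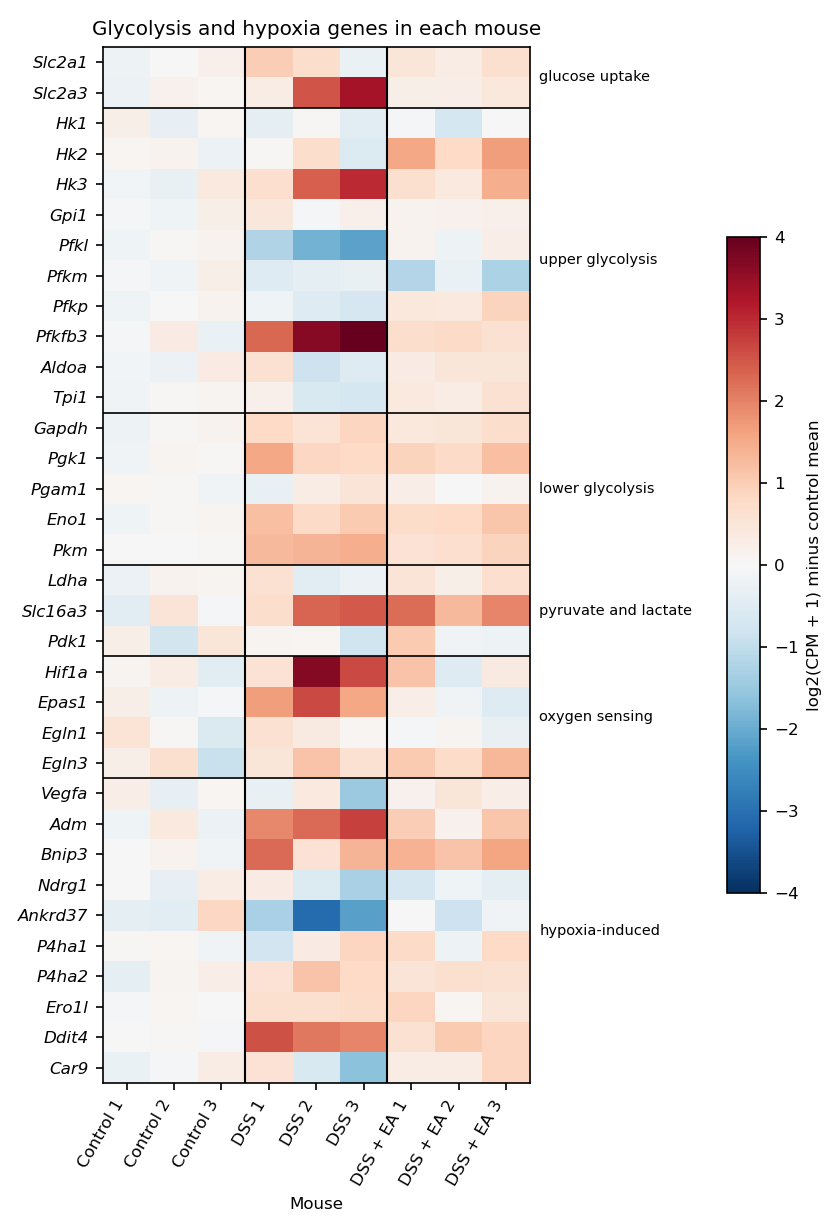
Level of each of the 34 genes (rows, grouped by role) in each of the 9 mice (columns), as log2(CPM + 1) minus the mean of the 3 control mice, with red above and blue below that mean. *Pfkfb3* and *Ddit4* are red in all 3 DSS mice and *Pfkl* and *Ankrd37* are blue, while *Slc2a3*, *Hk3* and *Hif1a* are dark red in DSS mice 2 and 3 and pale in DSS mouse 1.

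Library totals lay between 2627695 and 4235576 counts. The 34 genes took 0.720% to 0.827% of a control library, 1.18% to 1.33% of a DSS library and 0.980% to 1.20% of a DSS + EA library. The libraries held colon epithelium, whose 14 marker genes summed to between 21960 and 41130 CPM in control mice, 3316 and 15800 CPM in DSS mice and 17300 and 25040 CPM in DSS + EA mice. The 14 neutrophil markers summed to between 26.1 and 162 CPM in control mice (*Trem1* was at 0 there), 4677 and 29100 CPM in DSS mice and 1237 and 1630 CPM in DSS + EA mice. The 10 fibroblast markers summed to at most 918 CPM in control mice, at least 4339 CPM in DSS mice and between 1758 and 1845 CPM in DSS + EA mice. In DSS vs control, 13 of 13 tested neutrophil markers, 12 of 14 macrophage markers, 10 of 10 fibroblast markers, 6 of 8 endothelial markers and 4 of 4 tested erythroid markers were called higher, and 9 of 14 epithelial and 7 of 8 smooth muscle markers lower. Over all genes tested, 21.5% were called higher and 19.5% lower. The 7 erythroid genes, mainly globins, summed to between 96.2 and 118 CPM in control mice, 1434 and 3819 CPM in DSS mice (highest in DSS mouse 1) and 145 and 214 CPM in DSS + EA mice. In DSS + EA vs DSS all 4 that were tested were called lower, against 18.3% of all genes. So were 11 of 13 tested neutrophil, 7 of 14 macrophage, 8 of 10 fibroblast and 5 of 8 endothelial markers. There 7 of 14 epithelial and 2 of 8 smooth muscle markers were called higher, against 17.2% of all genes. These cell type sums moved with the groups, and their part in the values below was not tested. In bulk tissue, fewer cells of a type and less RNA per cell cannot be told apart.

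DSS mouse 1 stood apart from the other DSS mice, with the lowest neutrophil sum (4677 CPM, against 25670 and 29100 CPM) and the highest epithelial sum (15800 CPM, against 5902 and 3316 CPM) of its group. Values without this mouse are given where they change the call of a member in the comparisons with the DSS group, or move such a fold change by over 1.5 times. DSS + EA mice 2 and 3 held 38770 and 18800 CPM of 12 pancreatic acinar genes, against 650 CPM in DSS + EA mouse 1 and at most 963 CPM in the other groups.

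The promoters of the members were searched for the core letters that HIF binds, ACGTG or GCGTG, on either strand. ACGTG can also lie inside the palindrome CACGTG, to which other factors bind, and this is then counted on both strands. RefSeq promoters of GRCm38.p6 ran from 250 bases before to 50 bases after the transcription start, and the first start listed was used. Members were matched by Ensembl identifier or name, which found 31 of the 34 genes (*Ero1l* under its name *Ero1a*). The tested genes below were matched by symbol alone. The motif was found in 25 of these 31 promoters (80.6%), in 62.8% of the promoters of 8843 tested genes and in 43.8% of all 27025 promoters. It was present in 12 of 13 members called higher in the DSS group, in 2 of 2 called lower and in 11 of 16 that were not called (68.8%). The motif was present in both members that fell, and a match of these letters is not a binding site. The 4 promoters with the motif whose genes changed most in DSS mice are shown first, with the motif in capitals, and *Pkm* stands for a gene that rose without these letters in its window.
Pfkfb3: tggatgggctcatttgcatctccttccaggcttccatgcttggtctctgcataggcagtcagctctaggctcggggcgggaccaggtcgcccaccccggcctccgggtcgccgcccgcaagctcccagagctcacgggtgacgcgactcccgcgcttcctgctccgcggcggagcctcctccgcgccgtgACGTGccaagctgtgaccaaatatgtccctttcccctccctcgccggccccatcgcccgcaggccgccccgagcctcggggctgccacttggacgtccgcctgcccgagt
Hk3: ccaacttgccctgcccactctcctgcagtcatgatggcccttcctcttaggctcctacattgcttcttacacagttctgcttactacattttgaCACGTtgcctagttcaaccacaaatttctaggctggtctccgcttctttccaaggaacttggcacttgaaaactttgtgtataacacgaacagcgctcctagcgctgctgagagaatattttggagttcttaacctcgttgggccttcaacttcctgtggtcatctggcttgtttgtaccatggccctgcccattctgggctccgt
Adm: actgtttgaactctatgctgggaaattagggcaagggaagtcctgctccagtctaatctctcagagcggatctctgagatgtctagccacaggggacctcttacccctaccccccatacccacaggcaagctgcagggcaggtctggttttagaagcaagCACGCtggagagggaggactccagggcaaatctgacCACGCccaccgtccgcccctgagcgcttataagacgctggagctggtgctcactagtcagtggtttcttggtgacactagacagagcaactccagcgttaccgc
Hif1a: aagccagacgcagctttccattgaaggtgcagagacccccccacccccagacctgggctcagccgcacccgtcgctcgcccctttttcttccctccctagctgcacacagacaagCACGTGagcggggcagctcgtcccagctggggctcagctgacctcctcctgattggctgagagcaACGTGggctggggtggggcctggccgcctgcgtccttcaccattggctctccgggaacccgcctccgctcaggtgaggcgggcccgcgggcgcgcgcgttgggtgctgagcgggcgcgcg
Pkm: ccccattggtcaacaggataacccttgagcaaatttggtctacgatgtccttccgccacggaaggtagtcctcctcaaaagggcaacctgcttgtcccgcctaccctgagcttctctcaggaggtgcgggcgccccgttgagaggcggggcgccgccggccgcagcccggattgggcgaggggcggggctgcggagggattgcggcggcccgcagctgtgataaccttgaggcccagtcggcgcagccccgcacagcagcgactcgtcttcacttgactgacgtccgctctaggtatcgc
These windows lie at chr2:11553880-11554179 (minus strand, *Pfkfb3*), chr13:55021336-55021635 (minus strand, *Hk3*), chr7:110627407-110627706 (plus strand, *Adm*), chr12:73907617-73907916 (plus strand, *Hif1a*) and chr9:59656326-59656625 (plus strand, *Pkm*). The first motif base lies 60 bases before the start in *Pfkfb3* and 156 bases before it in *Hk3*. *Adm* has the reverse complement at 90 and at 54 bases before the start. In *Hif1a* 1 palindrome, which counts as 2 matches, and 1 further match were found.

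Glucose enters cells through transporters of the Slc2a family. *Slc2a1* encodes GLUT1, the common basal transporter, and averaged 50.7 ± 6.96 CPM (SD, n = 3) in control mice, 75.5 ± 30.8 CPM in DSS mice and 71.0 ± 8.97 CPM in DSS + EA mice. It was not called in any comparison (DSS vs control, log2 fold change 0.58 ± 0.30 SE, adjusted p = 0.146). Without DSS mouse 3, which had the lowest DSS level (41.5 CPM), its log2 fold change was 0.87 and it was called.

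*Slc2a3* (ENSMUSG00000003153, chromosome 6, 122727809 to 122801640, minus strand) encodes GLUT3, a high-affinity transporter that neutrophils and neurons express. Its counts were 4, 5 and 4 in control mice, 6, 58 and 73 after DSS, and 6, 5 and 7 after DSS + EA. DSS mice 2 and 3 were far above every other mouse, and DSS mouse 1 did not exceed the highest DSS + EA mouse in counts. The filter on low counts removed this gene. In a fit without that filter its log2 fold change was 3.10 ± 0.67 (SE, adjusted p = 0.00359) in DSS vs control and -2.55 ± 0.64 (adjusted p = 0.0112) in DSS + EA vs DSS. When any 1 DSS + EA mouse was left out, the gene passed the filter and was not called in DSS + EA vs DSS (adjusted p = 0.0549 to 0.0579). Those fits kept the filter, so they differ from the unfiltered fit in more than the missing mouse. With DSS + EA mouse 1 alone, also with the filter, the log2 fold change in DSS + EA vs DSS was -2.72. Summed over mice, the DSS level was 9.19 times the control level, with an exact 95% counting interval of 5.20 to 17.7 that covers counting error only. As a share of the counts of *Slc2a1* and *Slc2a3* together, *Slc2a3* made up 1.86%, 13.2% and 35.4% in the 3 DSS mice, against 2.26% to 3.21% in the control mice.

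**Figure D2:**
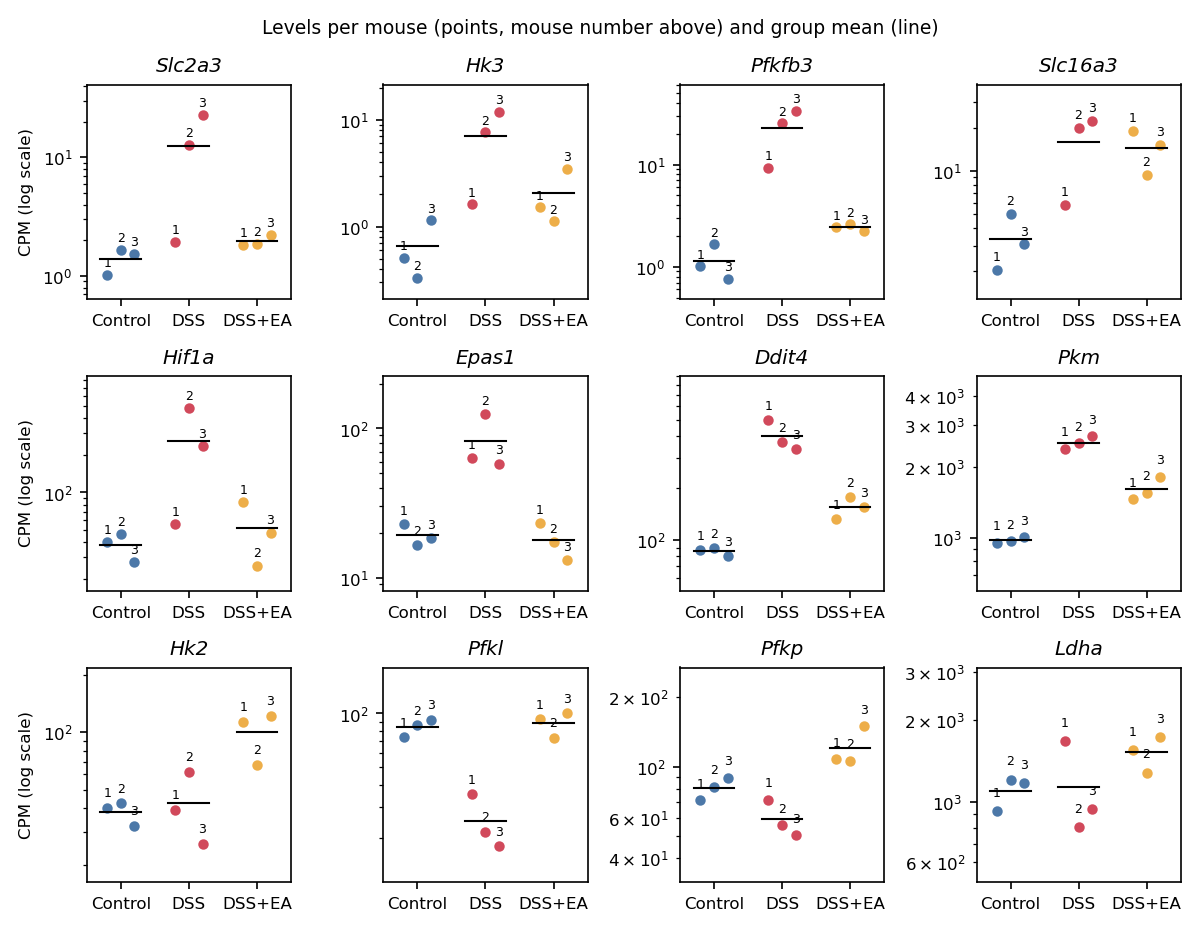
CPM of 12 of the genes on a log axis, with 1 point per mouse (its number above it) and a line at the group mean, for the control, DSS and DSS + EA groups. DSS mouse 1 is the lowest of its group in *Slc2a3*, *Hk3*, *Pfkfb3*, *Slc16a3* and *Hif1a* and the highest in *Pfkl*, *Pfkp* and *Ldha*.

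Hexokinases trap glucose in the cell as glucose 6-phosphate. *Hk3* (ENSMUSG00000025877, chromosome 13, 55005985 to 55021385, minus strand), the hexokinase of granulocytes and macrophages, had 0.508, 0.332 and 1.15 CPM in the control mice, 1.61, 7.60 and 11.9 CPM in the DSS mice and 1.52, 1.12 and 3.49 CPM in the DSS + EA mice. Every DSS mouse exceeded every control mouse, while DSS mouse 1 lay among the DSS + EA mice. The log2 fold change was 3.40 ± 0.81 (adjusted p = 0.0081) in DSS vs control. It rests on 78 counts against 6, a ratio of 11.3 with a counting interval of 4.98 to 31.8. *Unc5a* overlaps *Hk3* on the opposite strand with 34 counts against 103 over all mice, and the use of strand in counting is not given. *Unc5a* averaged 1.09 CPM in control and 1.01 CPM in DSS mice. For *Hk3* the log2 fold change of -1.75 ± 0.67 in DSS + EA vs DSS was not called (adjusted p = 0.066), and without DSS mouse 1 it was -2.17 and called (adjusted p = 0.00665).

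*Hk2*, an inducible hexokinase that binds mitochondria, followed another order. Its levels were 40.2, 42.2 and 32.2 CPM in the control mice, 38.9, 62.1 and 25.9 CPM in the DSS mice and 114, 67.2 and 122 CPM in the DSS + EA mice. All DSS + EA mice lay above all mice of the other groups, while the DSS mice lay on both sides of the control mice. *Hk2* (chromosome 6, 82725025 to 82774454, minus strand) was higher in DSS + EA than in DSS mice (log2 fold change 1.25 ± 0.33, adjusted p = 0.0163) and than in control mice (1.40 ± 0.33, adjusted p = 0.0499). The call against the DSS group was lost without DSS + EA mouse 1 or mouse 3 (adjusted p up to 0.0664). *Hk1*, the hexokinase found in most cells, had group means between 29.9 and 36.1 CPM and was not called.

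The makeup of the hexokinase counts differed between the groups. *Hk2* made up 48.5%, 59.6% and 45.2% of the *Hk1*, *Hk2* and *Hk3* counts in the control mice, 57.6%, 58.1% and 40.9% in the DSS mice, and 76.2%, 75.0% and 75.6% in the DSS + EA mice. The DSS + EA shares lay within 1.2 percentage points of each other and above all other mice. *Hk3* made up 0.614%, 0.469% and 1.61% in the control mice, 2.38%, 7.11% and 18.7% in the DSS mice, and 1.02%, 1.25% and 2.16% in the DSS + EA mice. DSS and DSS + EA mice did not overlap in either share. An exact two-sided permutation test of 3 against 3 mice cannot go below p = 0.1, which both shares reached (adjusted p = 0.171 over 12 such tests).

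**Figure D3:**
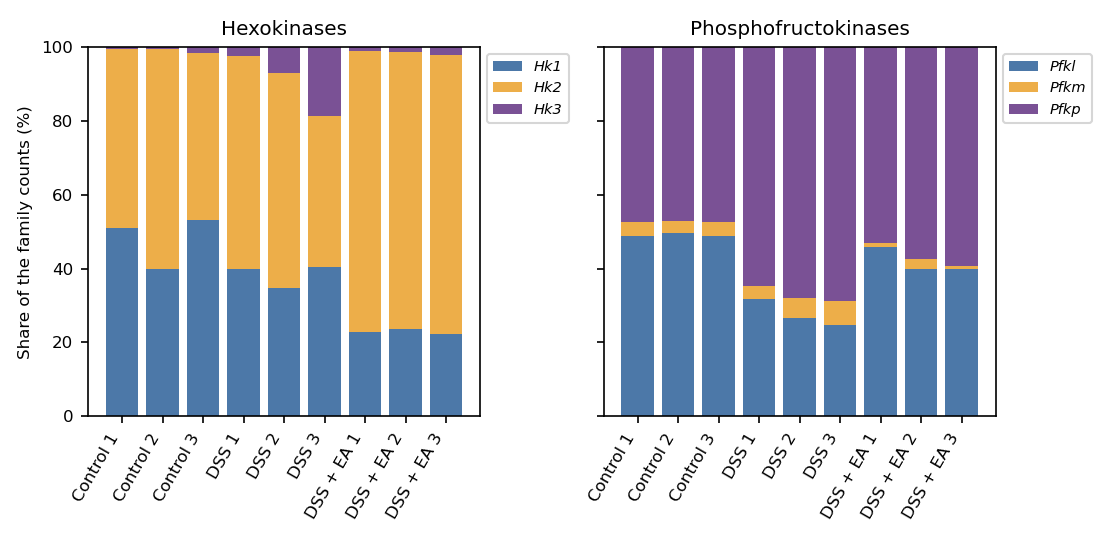
Share of each isoenzyme in the summed counts of the hexokinases (*Hk1*, *Hk2*, *Hk3*) and of the phosphofructokinases (*Pfkl*, *Pfkm*, *Pfkp*), as stacked bars in percent, 1 bar per mouse. *Hk2* takes 75.0% to 76.2% in the DSS + EA mice, *Hk3* is visible mainly in DSS mice 2 and 3, and *Pfkp* takes 64.6% to 68.8% in the DSS mice against 47.2% to 47.4% in the control mice.

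Glucose 6-phosphate is turned into fructose 6-phosphate by *Gpi1*, which did not pass the test in any comparison (320 ± 44.9 CPM in the control, 369 ± 67.1 in the DSS and 359 ± 9.89 in the DSS + EA group). Phosphofructokinase then commits the sugar to glycolysis. *Pfkl* (ENSMUSG00000020277, chromosome 10, 77986947 to 78010083, minus strand), the liver-type subunit, had 73.7, 85.8 and 92.4 CPM in the control mice, 35.4, 21.7 and 18.1 CPM in the DSS mice and 92.8, 73.2 and 100.6 CPM in the DSS + EA mice. The DSS mice were below all others, and control and DSS + EA mice overlapped. *Pfkl* fell 3.35-fold in the DSS group (log2 fold change -1.74 ± 0.26, adjusted p = 0.000842) and was 3.55-fold higher with EA than without it (1.83 ± 0.26, adjusted p = 0.00119). DSS + EA and control differed by 0.08 ± 0.25 on the log2 scale.

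*Pfkp*, the platelet-type subunit, had 71.4, 81.5 and 89.3 CPM in the control mice, 71.7, 55.6 and 50.2 CPM in the DSS mice and 107, 106 and 149 CPM in the DSS + EA mice. All DSS + EA mice were above all other mice, and only DSS mouse 1 reached into the control range. *Pfkp* was 2.04-fold higher in DSS + EA than in DSS mice (log2 fold change 1.03 ± 0.21, adjusted p = 0.00583) and was not called in DSS vs control (-0.45 ± 0.21, adjusted p = 0.12). The muscle-type *Pfkm* stayed at or below 7.28 CPM in every mouse and was not called. Its own counts are uncertain, since *Senp1* overlaps it on the opposite strand with more counts (215 against 130) and the use of strand in counting is not given in the sources used here. *Pitrm1* overlaps *Pfkp* on the opposite strand as well, with fewer counts (499 against 2506).

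As a share of all phosphofructokinase counts, *Pfkp* averaged 47.3 ± 0.0922% in control mice, 67.2 ± 2.23% in DSS mice and 56.6 ± 3.21% in DSS + EA mice (SD, n = 3). No mouse overlapped between these groups. Both differences reached the smallest exact permutation p of 0.1 (adjusted p = 0.171). The DSS share was the higher one although the *Pfkp* level itself was not called in DSS vs control, and the other main subunit, *Pfkl*, fell.

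The largest rise among the members tested was that of *Pfkfb3* (ENSMUSG00000026773, chromosome 2, 11471433 to 11554077, minus strand). It encodes the enzyme that makes fructose 2,6-bisphosphate, the strongest activator of phosphofructokinase, and its promoter opens the sequences shown above. Its levels were 1.02, 1.66 and 0.766 CPM in the control mice, 9.33, 25.4 and 33.7 CPM in the DSS mice and 2.43, 2.61 and 2.22 CPM in the DSS + EA mice. The 3 groups did not overlap, and DSS + EA mice lay closer to control than to DSS mice. The gap between DSS + EA and control mice rests on few counts, 7 to 8 against 2 to 5 per mouse. *Pfkfb3* rose with a log2 fold change of 4.27 ± 0.53 (adjusted p = 0.000321) in DSS vs control, on 254 counts against 11, a ratio of 20.1 with a counting interval of 11.1 to 40.9. The gene passed the filter on low counts only through the DSS mice, where it was high, so its calls and its rank depend on that filter. In DSS + EA vs DSS it fell by 3.22 ± 0.48 on the log2 scale (adjusted p = 0.00137). In DSS + EA vs control the log2 fold change was 1.05 ± 0.63 (adjusted p = 0.452).

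*Aldoa*, which cleaves the phosphorylated sugar, and *Tpi1*, which interconverts its cleavage products, were not called in DSS vs control. *Aldoa* had 531, 486 and 721 CPM in the control mice, 877, 321 and 402 CPM in the DSS mice and 716, 793 and 800 CPM in the DSS + EA mice. *Tpi1* had 608, 699.5 and 727 CPM in the control mice, 775, 438 and 415 CPM in the DSS mice and 885, 839 and 1027 CPM in the DSS + EA mice. In both genes DSS mouse 1 lay above every control mouse and DSS mice 2 and 3 below every control mouse. Without DSS mouse 1 both were called lower in the DSS group (log2 fold change -0.71, adjusted p = 0.0173, for *Aldoa* and -0.69, adjusted p = 0.00573, for *Tpi1*), and *Aldoa*, which was not called in DSS + EA vs DSS with all mice (0.53, adjusted p = 0.245), was called higher there (1.12, adjusted p = 0.00237). *Tpi1* was higher in DSS + EA than in DSS mice (0.76 ± 0.25, adjusted p = 0.0396), a call that was lost without any 1 mouse other than DSS mouse 1 and in a fit of only these 2 groups (adjusted p up to 0.129).

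In lower glycolysis, 4 of 5 genes were higher in DSS mice, and 0 were lower, against 21.5% and 19.5% of all genes. *Gapdh*, which makes the first high-energy phosphate of this part and often serves as a reference gene, was at 2310.0, 2715 and 2919 CPM in the control mice, 4597, 3826 and 4776 CPM in the DSS mice and 3502, 3660.0 and 4284 CPM in the DSS + EA mice. All DSS mice were above all control mice, a log2 fold change of 0.73 ± 0.19 (adjusted p = 0.0115), which was lost without control mouse 1 (adjusted p = 0.0699). *Gapdh* was not called in DSS + EA vs DSS (-0.21 ± 0.19).

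*Pgk1*, which harvests the first ATP, had 232, 277 and 266 CPM in the control mice, 757, 462 and 453 CPM in the DSS mice and 475, 435 and 598 CPM in the DSS + EA mice. Control mice were below all other mice, and DSS and DSS + EA mice overlapped. The rise in the DSS group was 2.16-fold (log2 fold change 1.11 ± 0.24, adjusted p = 0.00511). *Eno1*, the enolase of most tissues, had 279, 324 and 334 CPM in the control mice, 716, 532 and 647 CPM in the DSS mice and 519, 545 and 676 CPM in the DSS + EA mice. Here too control mice were lowest and the other groups overlapped. *Eno1* rose 2.02-fold in the DSS group (1.02 ± 0.19, adjusted p = 0.00249) and was higher in DSS + EA than in control mice (0.89 ± 0.19, adjusted p = 0.032). *Pgam1*, the mutase between these steps, was not called (61.2 ± 4.96 CPM in the control and 70.9 ± 19.5 CPM in the DSS group).

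*Pkm* (ENSMUSG00000032294, chromosome 9, 59656368 to 59679375, plus strand), the pyruvate kinase of non-hepatic tissue, had 960.3, 971 and 1010 CPM in the control mice, 2388, 2520 and 2693 CPM in the DSS mice and 1460.0, 1558 and 1824 CPM in the DSS + EA mice. The 3 groups formed 3 separate ranges, with DSS highest and DSS + EA between. *Pkm* rose by 1.37 ± 0.17 on the log2 scale in DSS vs control (adjusted p = 0.000302), fell by 0.65 ± 0.17 in DSS + EA vs DSS (adjusted p = 0.0142) and was 0.72 ± 0.17 above control in DSS + EA mice (adjusted p = 0.0467). The fall was not called without DSS + EA mouse 1 or 2, with no filter, or in a fit of only these 2 groups (adjusted p up to 0.0597). The gene counts do not separate its M1 and M2 splice forms.

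The summed CPM of the 5 lower genes was 2.29, 2.54 and 2.20 times that of the 10 upper genes in the control mice, 3.74, 5.82 and 6.38 times in the DSS mice and 2.62, 2.76 and 2.85 times in the DSS + EA mice. The 3 groups did not overlap in this ratio, which is given as a description. *Gapdh* alone gave 51.6% to 63.7% of the lower sum.

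**Figure D4:**
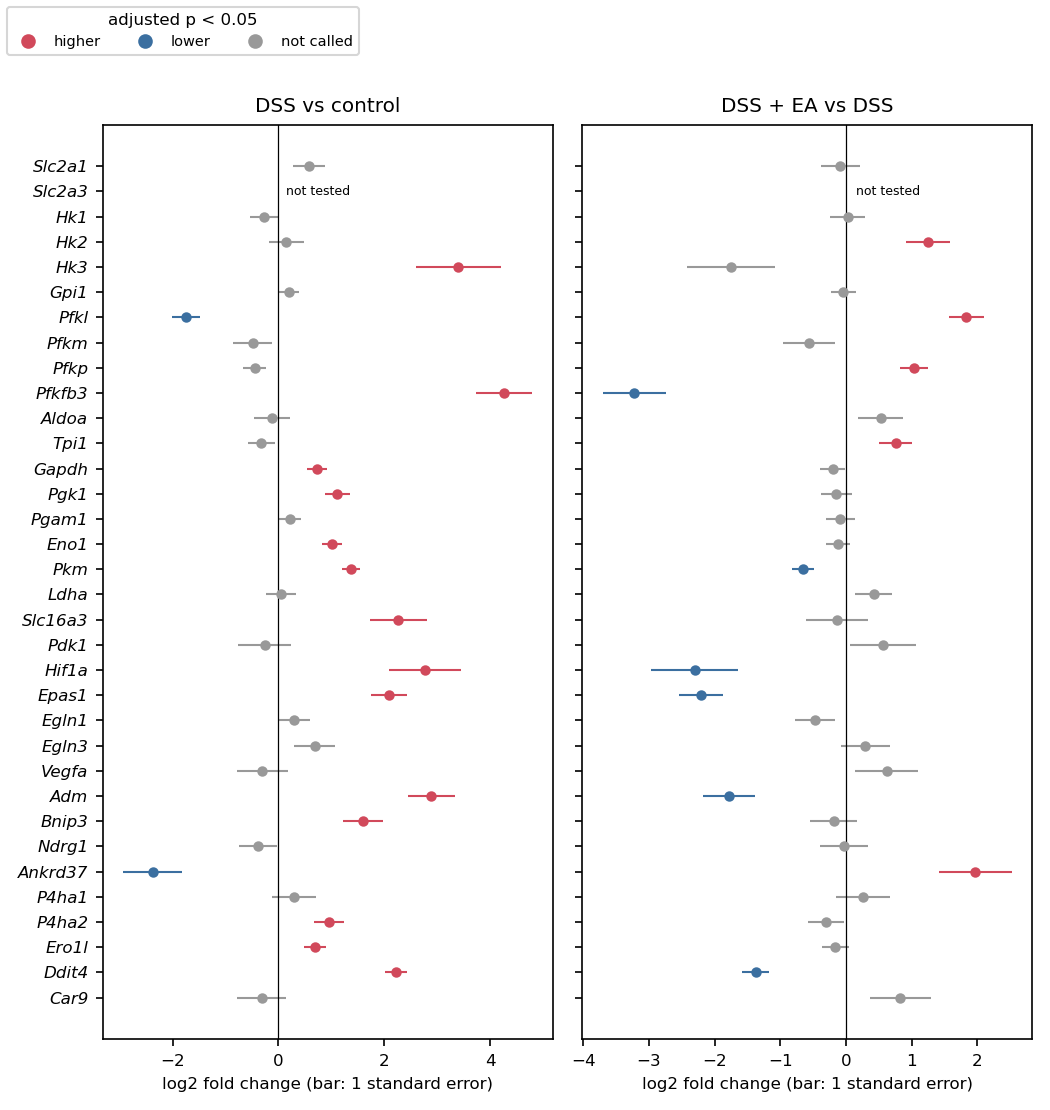
Log2 fold change of each gene (points, bars of 1 standard error) in DSS vs control (left) and DSS + EA vs DSS (right), coloured by the call at adjusted p under 0.05. On the left 14 points are red and 2 blue, and on the right 5 are red and 6 blue; *Slc2a3* was not tested in this fit.

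Pyruvate can be reduced to lactate or burned in mitochondria. *Ldha*, the lactate dehydrogenase subunit that favours lactate, had 925.0, 1208 and 1168 CPM in the control mice, 1667, 808 and 937 CPM in the DSS mice and 1548, 1280 and 1733 CPM in the DSS + EA mice. DSS mouse 1 had a higher level than any control mouse and the others did not, and the gene was not called in DSS vs control (log2 fold change 0.05 ± 0.28, adjusted p = 0.906). Without DSS mouse 1 *Ldha* was called higher in DSS + EA vs DSS (0.83, adjusted p = 0.00684), and with all mice it was not (0.42 ± 0.28, adjusted p = 0.258). *Ldha* made up 97.5 ± 0.408% of the summed *Ldha* and *Ldhb* counts in control mice, 96.4 ± 0.390% in DSS mice and 98.8 ± 0.352% in DSS + EA mice (*Ldhb* encodes the other main subunit). The DSS shares were below and the DSS + EA shares above all control shares (exact permutation p = 0.1 for DSS vs control and for DSS + EA vs DSS, adjusted p = 0.171).

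*Slc16a3* (chromosome 11, 120948480 to 120960868, plus strand) encodes MCT4, which exports lactate from glycolytic cells. It had 2.03, 4.99 and 3.07 CPM in the control mice, 5.79, 19.99 and 22.2 CPM in the DSS mice and 18.9, 9.34 and 15.2 CPM in the DSS + EA mice. Control mice were lowest, and the DSS and DSS + EA ranges lay over each other. The rise in the DSS group was 4.81-fold (log2 fold change 2.27 ± 0.54, adjusted p = 0.00842). Between DSS + EA and DSS mice the log2 fold change was -0.14 ± 0.47 (adjusted p = 0.835), and in DSS + EA vs control it was 2.12 ± 0.55 (adjusted p = 0.067). *Pdk1*, a kinase that keeps pyruvate out of mitochondria, had 7.25 ± 3.24 CPM in the control group and was not called in any comparison.

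Among the genes of oxygen sensing, both HIF α subunits were called in DSS vs control and in DSS + EA vs DSS, and the prolyl hydroxylases were not. *Hif1a* (ENSMUSG00000021109, chromosome 12, 73901375 to 73947530, plus strand) encodes HIF-1α, whose activity is set mainly by protein stability. Its RNA had 39.9, 45.9 and 27.6 CPM in the control mice, 56.0, 482 and 236 CPM in the DSS mice and 83.1, 25.8 and 47.6 CPM in the DSS + EA mice. All DSS mice were above all control mice, but DSS mouse 1 was only just above them and below DSS + EA mouse 1. The log2 fold change was 2.77 ± 0.68 (adjusted p = 0.00959) in DSS vs control, and 1.97 without DSS mouse 2, which had the highest level. *Hif1a* fell by 2.30 ± 0.67 on the log2 scale in DSS + EA vs DSS (adjusted p = 0.0235). That call was lost without DSS mouse 2 (log2 fold change -1.51, adjusted p = 0.0953), without DSS + EA mouse 2 or 3, and in a fit of only these 2 groups.

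*Epas1* (chromosome 17, 86753700 to 86833410, plus strand) encodes HIF-2α, which endothelium and macrophages express. It had 22.9, 16.6 and 18.4 CPM in the control mice, 63.4, 125 and 58.0 CPM in the DSS mice and 23.1, 17.2 and 13.0 CPM in the DSS + EA mice. The DSS mice were above all others, and the other groups overlapped. The rise was 4.25-fold (log2 fold change 2.09 ± 0.34, adjusted p = 0.00122), and DSS + EA was 4.62-fold below DSS (-2.21 ± 0.34, adjusted p = 0.00153) and -0.12 ± 0.34 from control. *Hif1a* made up 65.7 ± 6.94% of the counts of both α subunits in the control, 68.9 ± 19.0% in the DSS and 72.3 ± 10.6% in the DSS + EA group, with overlapping mice.

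The prolyl hydroxylases *Egln1* and *Egln3*, which mark HIF α subunits when oxygen is present, were not called. *Egln1* had 16.7 ± 6.52 CPM in the control, 20.6 ± 3.80 CPM in the DSS and 14.9 ± 2.25 CPM in the DSS + EA group. *Egln3*, itself known as a HIF target, had 9.53 ± 4.93, 15.4 ± 3.999 and 19.0 ± 4.11 CPM, and its log2 fold change was 0.69 ± 0.38 in DSS vs control (adjusted p = 0.178) and 0.98 ± 0.38 in DSS + EA vs control (adjusted p = 0.228).

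Of the 10 hypoxia-induced genes, 5 were called higher in DSS vs control (*Adm*, *Bnip3*, *P4ha2*, *Ero1l* and *Ddit4*) and 1 lower (*Ankrd37*), against 21.5% and 19.5% of all genes. *Adm* (chromosome 7, 110627661 to 110629820, plus strand) encodes adrenomedullin, a peptide that widens and seals vessels. It had 1.27, 2.33 and 1.15 CPM in the control mice, 8.69, 11.3 and 15.9 CPM in the DSS mice and 3.96, 1.87 and 4.44 CPM in the DSS + EA mice. DSS mice were above all others, and DSS + EA mice reached into the control range. *Adm* rose by 2.89 ± 0.44 on the log2 scale (adjusted p = 0.000828), on 130 counts against 15, a ratio of 7.56 with a counting interval of 4.42 to 13.9. It fell by 1.78 ± 0.39 in DSS + EA vs DSS (adjusted p = 0.00784).

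*Ddit4* (ENSMUSG00000020108, chromosome 10, 59949669 to 59951834, minus strand) encodes REDD1, a stress-induced brake on mTORC1 that glucocorticoids also induce. Its levels were 87.4, 89.1 and 80.5 CPM in the control mice, 500.3, 370.0 and 336 CPM in the DSS mice and 131, 178 and 155 CPM in the DSS + EA mice. The 3 groups did not overlap, and here DSS mouse 1 was the highest. *Ddit4* had the smallest adjusted p of the members in DSS vs control (log2 fold change 2.23 ± 0.21, adjusted p = 7.92e-05). It fell by 1.37 ± 0.20 in DSS + EA vs DSS (adjusted p = 0.00128) and stayed 0.85 ± 0.20 above control in the DSS + EA group (adjusted p = 0.0489).

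*Bnip3*, which marks mitochondria for removal, had 23.4, 25.9 and 21.1 CPM in the control mice, 116, 35.4 and 62.1 CPM in the DSS mice and 63.0, 52.3 and 72.0 CPM in the DSS + EA mice. Control mice were lowest, and DSS and DSS + EA mice overlapped. The log2 fold change in DSS vs control was 1.598 ± 0.37 (adjusted p = 0.00773), and in DSS + EA vs DSS it was -0.19 ± 0.36 (adjusted p = 0.709). *P4ha2*, a collagen prolyl hydroxylase, and *Ero1l*, an oxidase that forms disulfide bonds, rose 1.95-fold (adjusted p = 0.0214) and 1.61-fold (adjusted p = 0.027). Their calls were lost without control mouse 1 or 2, and also without DSS mouse 2 (*P4ha2*) or without control mouse 3 or DSS mouse 3 (*Ero1l*), with adjusted p up to 0.103. The *Ero1l* call was lost with no filter on low counts as well.

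*Ankrd37* (chromosome 8, 45996902 to 46005707, minus strand), an ankyrin repeat gene known as a HIF-1 target, went the other way. It had 16.8, 16.0 and 39.5 CPM in the control mice, 8.36, 1.74 and 4.06 CPM in the DSS mice and 21.9, 11.95 and 19.7 CPM in the DSS + EA mice. The DSS mice were below all others. *Ankrd37* fell by 2.38 ± 0.55 on the log2 scale (adjusted p = 0.00732) and was 1.97 ± 0.55 higher in DSS + EA vs DSS (adjusted p = 0.021), a call lost without DSS mouse 2 or 3 or DSS + EA mouse 1 or 3. Without DSS mouse 1 these log2 fold changes were -3.11 (adjusted p = 0.00194) and 2.70 (adjusted p = 0.00483). *Ufsp2*, which overlaps it on the opposite strand with 1639 counts against 430, moved the same way (-1.06 ± 0.26, adjusted p = 0.00969, and 1.20 ± 0.26, adjusted p = 0.00707). Without the use of strand, the reads of these neighbours cannot be told apart.

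The other 4 hypoxia-induced genes, *Vegfa*, *Ndrg1*, *P4ha1* and *Car9*, were not called in any comparison with all mice. *Vegfa*, the main growth factor of vessels, had 6.26 ± 1.5 CPM in the control, 4.95 ± 3.46 CPM in the DSS and 7.86 ± 1.00 CPM in the DSS + EA group, and a log2 fold change of -0.30 ± 0.48 in DSS vs control. *Car9*, a carbonic anhydrase of the cell surface that marks hypoxia in tumours, had 36.6, 43.2 and 55.2 CPM in the control mice, 66.3, 28.9 and 13.4 CPM in the DSS mice and 55.1, 54.9 and 81.8 CPM in the DSS + EA mice. As in *Aldoa* and *Tpi1*, DSS mouse 1 was above all control mice and the other DSS mice below them. Without DSS mouse 1, 7 members instead of 2 were called lower in the DSS group, since *Pfkp*, *Aldoa*, *Tpi1*, *Ndrg1* (log2 fold change -0.93, adjusted p = 0.0218) and *Car9* (-1.09, adjusted p = 0.0274) joined *Pfkl* and *Ankrd37*. Calls over all genes, in either direction, rose as well without this mouse, from 5144 of 12566 to 6400 of 13341. In DSS + EA vs DSS, *Car9* was not called with all mice (0.82, adjusted p = 0.187) and was called higher without DSS mouse 1 (1.61, adjusted p = 0.00566).

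The part of the 2 DSS + EA mice with pancreatic RNA in the comparison with the DSS group was not tested. DSS + EA mouse 1 alone gives no spread of its own, so only log2 fold changes are given for it. They were 1.91 for *Pfkl*, -1.595 for *Ddit4*, -3.19 for *Pfkfb3*, -1.81 for *Epas1*, 1.44 for *Hk2* and -1.61 for *Hif1a*. With all mice they were 1.83, -1.37, -3.22, -2.21, 1.25 and -2.30, in the same order. The directions of all 9 members with a called change of 1 or more on the log2 scale were as with all mice. For the 4 members called higher in DSS + EA vs control, the log2 fold changes with this mouse alone were 1.56 (*Hk2*), 0.72 (*Eno1*), 0.56 (*Pkm*) and 0.60 (*Ddit4*). With all mice they were 1.40, 0.89, 0.72 and 0.85. Each of the 4 calls was lost when any 1 control mouse, DSS + EA mouse 1 or DSS + EA mouse 3 was left out (adjusted p up to 0.243). Over all genes, the calls of this comparison fell from 457 to between 110 and 266 in those fits.

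Other genes of sugar use were read from longer lists. Of 39 tested genes of glucose transport, glycolysis, gluconeogenesis, glycogen and pyruvate use outside the members, 3 were called higher and 14 lower in DSS vs control, with a median of -0.41 against 0.02 over all genes. Of all genes, 21.5% were called higher and 19.5% lower there. The 3 that rose were *Pygl*, the glycogen phosphorylase of leukocytes and liver (mean levels 3.80, 55.5 and 6.81 CPM in control, DSS and DSS + EA mice, log2 fold change 3.88 ± 0.68, adjusted p = 0.00184), and the glucose transporters *Slc2a6* (2.19 ± 0.73, adjusted p = 0.037) and *Slc2a4* (0.91 ± 0.32, adjusted p = 0.0466). Of the 14 that fell, the 4 with the smallest P were *Pck1*, the entry enzyme of gluconeogenesis (-4.97 ± 0.52, adjusted p = 0.000142), *Pdk2*, a relative of *Pdk1* (-1.93 ± 0.27, adjusted p = 0.000599), the muscle-type enolase *Eno3* (-3.29 ± 0.49, adjusted p = 0.000793) and *Pklr*, the pyruvate kinase of liver and red cells (-2.54 ± 0.49, adjusted p = 0.00306). *Pklr* and *Eno3* thereby fell in the mice in which their relatives *Pkm* and *Eno1* rose. With EA, 14 genes of this list were called higher and 3 lower than in DSS mice, *Pklr* by 2.34 ± 0.49 (adjusted p = 0.00623) and *Pck1* by 3.70 ± 0.55 (adjusted p = 0.00131) among those that were higher. Of all genes, 17.2% were called higher and 18.3% lower in that comparison.

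Of 9 genes of the pentose phosphate pathway, which branches from glucose 6-phosphate to make NADPH, *G6pdx* (log2 fold change 0.93 ± 0.24, adjusted p = 0.0118) and *H6pd* (1.77 ± 0.29, adjusted p = 0.00127) were higher in DSS mice and *Rpe* lower (-0.996 ± 0.32, adjusted p = 0.032). Between DSS + EA and DSS mice 2 of them were called higher and 1 lower. Of 34 other tested genes of oxygen sensing and the hypoxia response, 12 were called higher and 4 lower in DSS vs control, with a median of 0.36. The stress gene *Ier3* (mean levels 11.3, 222 and 31.9 CPM in control, DSS and DSS + EA mice) and the metal-binding *Mt1* (290, 6016 and 640 CPM) led by P, with log2 fold changes of 4.29 ± 0.23 (adjusted p = 6.96e-06) and 4.38 ± 0.29 (adjusted p = 1.62e-05). The collagen cross-linking enzymes *Lox* (4.30 ± 0.46, adjusted p = 0.000147) and *Loxl2* (2.74 ± 0.32, adjusted p = 0.000237) followed. Those that fell were *Hif1an*, a hydroxylase that restrains HIF activity (-1.31 ± 0.27, adjusted p = 0.00399), *Stc2* (-1.55 ± 0.36, adjusted p = 0.00732), the carbonic anhydrase *Car12* (-1.09 ± 0.28, adjusted p = 0.0119) and *Selenbp1* (-2.78 ± 0.73, adjusted p = 0.0134). With EA, 5 genes of this list were called higher and 10 lower than in DSS mice. For this list and the pentose phosphate genes, the shares over all genes were 21.5% higher and 19.5% lower in DSS vs control. In DSS + EA vs DSS they were 17.2% and 18.3%.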

How the data were processed

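Colon RNA of 9 mice was read as full-length cDNA, with 1 library per mouse. The authors deposited raw read counts of each gene, as whole numbers. Their processing notes name mm10, and positions are from GENCODE M21 on that build. The aligner, the counting tool and the use of strand are not given in the sources used here, so reads of overlapping or near-identical genes may have been divided between them. The copies *Eno1b*, *Aldoart1*, *Aldoart2*, *Pgk2*, *Pgam2* and *Gapdhs* held at most 10 counts each. A library of this depth resolves 3 counts as 0.708 to 1.14 CPM.

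Testing used edgeR 4.0.16 under R 4.3.3. Libraries were scaled by TMM, filterByExpr was run by group, and 1 quasi-likelihood fit (prior count 0.125) held all 9 libraries with group as the only term. P-values were adjusted over 12566 genes by Benjamini and Hochberg. Standard errors are the log2 fold change divided by the square root of F. The functions were tested on simulated data. Shares were compared by exact permutation tests over mice.

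The members and lists were chosen with earlier results of these data known. Levels per mouse are given for members called with a log2 fold change of at least 1 in DSS vs control or DSS + EA vs DSS and for *Slc2a3*. *Gapdh*, *Aldoa*, *Tpi1*, *Ldha* and *Car9* were added after their values were seen. Other lists are represented by up to 4 genes per direction, those of smallest P in DSS vs control. The alternatives were DESeq2 1.42.0, RLE scaling, library totals, the 2 compared groups alone, no filter, a minimum mean of 20 counts, a prior count of 2, a replicate block and leaving out each mouse.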

Additional observations from a re-analysis of the deposited data

How the results depend on the processing

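In DSS vs control the 4 DEGs became 2 with a mean of at least 20 counts, which removed *Hk3* and other low genes, and 3 to 7 when 1 mouse was left out. Leaving out 1 mouse gave 2 to 7 members called lower. In DSS + EA vs DSS, DESeq2 or no filter gave 2 DEGs in place of 1, and leaving out 1 mouse gave 1 to 4 DEGs, 2 to 8 members called higher and medians from -0.18 to 0.0073, the positive one without DSS + EA mouse 2. Fitting only the 2 groups compared gave 4 lower. In DSS + EA vs control the 4 higher became 7 with DESeq2, 8 with only the 2 groups compared, 2 with RLE scaling, 2 with a mean of at least 20 counts, 0 with the replicate block, and 0 to 7 when 1 mouse was left out, which also gave 0 or 1 DEG. *Slc2a3* counts among the members with DESeq2, with no filter and without 1 mouse, other than without DSS mouse 2 or 3. The fit with DSS + EA mouse 1 alone was chosen after seeing the data, and only its fold changes are given above. The cause of these shifts was not tested.

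The difference in *Hk2* share between DSS and control (1.13 percentage points) was -0.0226 per kilobase of transcript and between -1.83 and 6.79 without 1 mouse. That of *Hif1a* lay between -2.50 and 14.2 (DSS vs control) and between -7.60 and 9.51 (DSS + EA vs DSS) without 1 mouse. That of *Ldha* was -1.56 and 3.36 per kilobase. For the members named with a log2 fold change of at least 1, 0 of 392 alternative values changed direction. All lost calls were in DSS + EA vs DSS. There *Hk2* was called in 14 of 16 alternatives, *Hif1a* in 11 of 16 and *Ankrd37* in 12 of 16. The other such members kept their calls in every alternative that tested them. The statements on calls leave out the prior count of 2, which was compared by direction only, and the fit with DSS + EA mouse 1 alone. The 392 values compared by direction include both.

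Same-numbered mice are different animals, and their deviations from the group means correlated by -0.163 to 0.111. Differently numbered mice gave -0.208 to 0.266. With 3 mice per group these values cannot decide whether a number stands for a shared batch, and the labels do not say. With the replicate block, 13 members were higher and 2 lower in DSS vs control, and 4 were higher and 6 lower in DSS + EA vs DSS. The block ended the calls of *Ero1l* (DSS vs control), *Tpi1* and *Hif1a* (DSS + EA vs DSS) and added that of *Hk3* (DSS + EA vs DSS). The median log2 fold change of all genes in DSS + EA vs DSS was -0.17 with DESeq2, which tested more genes, against -0.02.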
